A study of Mus musculus with 9 samples.

Results

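Trac and Trdc encode the constant regions of the T cell receptor alpha and delta chains, and the E2A and HEB peaks in their spans or within 50 kb are described here. The genes lie 74412 bp apart on mouse chromosome 14, Trdc at 54142851 to 54146108 and Trac at 54220521 to 54224198 in build mm10. A peak was taken if it lay in either span or no farther than 50 kb from it, whatever its score, and 14 of the 79216 peaks on the 21 main chromosomes met that rule. They came from 6 peak lists and joined into 6 sites, of which 1 held a peak of every list.

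E2A and HEB are basic helix-loop-helix transcription factors, encoded by Tcf3 and Tcf12, that bind short E-box sequences as dimers and are needed for early T cell development. Immunoprecipitated chromatin was sequenced from fetal liver progenitors of Rag2-deficient BALB/c mice, all grown on OP9-DL1, a stromal line that presents a Notch ligand. The DN3 groups are cells harvested at day 7 (Thy1.2+ CD4- CD8- CD25+ CD44-), and the CD73- and CD73+ groups are DN3 cells that took up the KN6 gamma-delta receptor from virus-producing GP+E cells with IL7 and Flt3L, were sorted as YFP+, and spent 3 more days on OP9-DL1. These were then parted as Thy1+ YFP+ CD4- CD8- CD24+ cells without or with CD73. Per the labels, CD73- cells could still follow the alpha-beta path and CD73+ cells no longer could. The 9 libraries are an input, an E2A and a HEB library for each of the 3 stages, and every library joins duplicates. There is thus no replicate error, no test is given, and differences between lists describe these libraries only. No group was transduced without the receptor, so receptor, transduction, culture and sorting cannot be told apart. The peak lists hold no expression values, so the labelled cell types could not be checked against markers.

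The mouse alpha and delta genes share a single locus. The delta D, J and C segments sit inside the alpha locus, between most of the V segments and the long row of alpha J segments (Traj), and joining an alpha V to a Traj segment deletes the delta genes from that chromosome. Rag2 is a subunit of the recombinase that cuts these segments, so in Rag2-deficient cells the locus stays in its unrearranged order, which is the order of the reference. A known alpha enhancer lies a short way past Trac on the side of Dad1, and a known delta enhancer lies between the delta J segments and Trdc. Dad1, a subunit of the enzyme that adds N-linked sugars, and Abhd4, a lipid hydrolase, are the protein-coding neighbours in the window.

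The lists held 12357 and 11619 peaks in DN3 cells (E2A and HEB), 12434 and 9407 in CD73- cells and 23205 and 10194 in CD73+ cells. Read depth is not given in them and is unknown here, so a gene without a called peak is not thereby shown to be free of the factor. The score of a peak is the authors' own, with a minimum of 50 in these files. It is taken here as -10 log10 of the p-value against the input of that stage, as MACS usually writes it, which no file header states, and it can order the peaks of 1 list but not compare lists. The CD73+ lists differ in how far they meet the DN3 sites. Among DN3 E2A peaks with scores from 100 up, 51.3% met a CD73+ HEB peak and 15.2% a CD73+ E2A peak. Among such DN3 HEB peaks the shares were 57.6% and 23.5%. The CD73- lists leaned the same way, by less. There the shares were 32.0% (HEB) and 24.3% (E2A) of such DN3 E2A peaks, and 44.5% and 34.2% of such DN3 HEB peaks. Whether the labels of the 2 CD73+ lists are right was not settled here. Every CD73+ value below follows the labels as deposited, and with the lists exchanged each CD73+ E2A value would be a HEB value and the reverse. Which sites had a peak of all 6 lists does not depend on those labels.

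Of the RefSeq promoter windows (GRCm38.p6, the same build), 0 matched Trac and 0 matched Trdc, and genome sequence under the peaks was not used here. The 300-base windows of the neighbouring genes are shown because the peaks lie outside them. None of the 4 windows within reach, 1 for Dad1, 2 for Abhd4 and 1 for the long non-coding RNA gene Gm30275, overlapped a peak of any list. The Dad1 window is on the minus strand at chr14:54253880-54254179 and nearly coincides with the first Abhd4 window on the other strand. The second Abhd4 window is on the plus strand at chr14:54259033-54259332. Capitals mark each match to the E-box pattern CANNTG, which reads the same on both strands.
Dad1: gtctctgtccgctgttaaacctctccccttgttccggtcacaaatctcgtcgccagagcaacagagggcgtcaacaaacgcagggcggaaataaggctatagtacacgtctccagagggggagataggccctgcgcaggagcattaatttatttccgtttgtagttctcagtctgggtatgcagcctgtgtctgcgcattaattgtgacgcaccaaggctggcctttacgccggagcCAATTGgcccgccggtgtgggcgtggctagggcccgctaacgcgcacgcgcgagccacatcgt
Abhd4, second window: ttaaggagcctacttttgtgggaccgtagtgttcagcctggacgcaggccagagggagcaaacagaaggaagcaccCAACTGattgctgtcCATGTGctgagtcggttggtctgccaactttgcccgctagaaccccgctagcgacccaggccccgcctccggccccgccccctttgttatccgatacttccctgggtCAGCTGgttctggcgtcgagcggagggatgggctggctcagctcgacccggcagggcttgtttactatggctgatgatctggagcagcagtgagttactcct
The Dad1 window held 1 match, CAATTG. The first Abhd4 window, not printed, held the same 1 match, the second held 3, among them CAGCTG, and the Gm30275 window held 0. Over 32851 promoter windows of this length, 72.3% held CANNTG, 16.3% held CAGCTG, and 20.2% held CAGGTG or its reverse complement CACCTG. A match of these letters is a description and does not mark a bound site, and here windows with matches had no called peak.

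The strongest signal near either gene was a site on the far side of Trac, in the stretch toward Dad1 that is known to hold the alpha enhancer. It was the only 1 of the 6 sites with a peak in all 6 lists. In DN3 cells the E2A peak there scored 2803.78 and the HEB peak 1310.95. In CD73- cells the scores were 576.63 for E2A and 1073.56 for HEB. In CD73+ cells they were 319.93 for E2A and 3062.6 for HEB. Every one of these values stood far above the middle of its own list, whose medians ran from 58.3 to 82.1.

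Within its list, the peak past Trac ranked 39 of 12357 for DN3 E2A and 57 of 11619 for DN3 HEB. It ranked 77 of 12434 for CD73- E2A and 34 of 9407 for CD73- HEB. It ranked 138 of 23205 for CD73+ E2A and 10 of 10194 for CD73+ HEB, where the 9 peaks above it scored 3100, a value at which scores are tied. The share of peaks with a lower score was thus between 99.4% (CD73- E2A and CD73+ E2A) and 99.9% (CD73+ HEB). No change between stages can be read from these ranks, since the lists differ in length and depth is not known. The plot of scores against whole lists shows the site past Trac to the right of the 99th percentile in each row, and the other peaks near the genes inside the bulk of their lists.

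**Figure D1:**
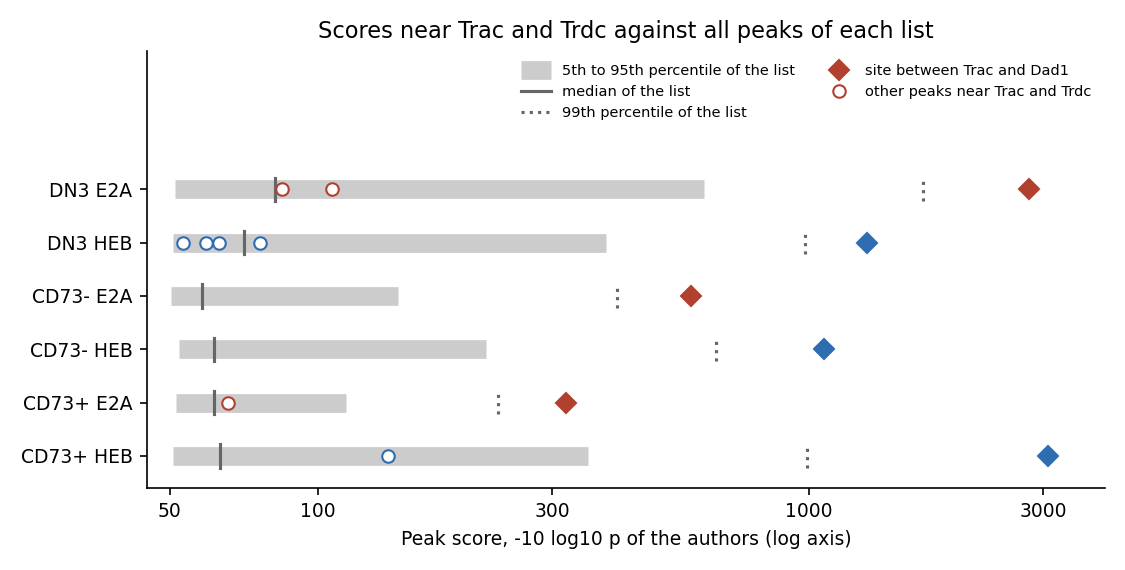
Scores of the 14 peaks near Trac and Trdc (points, red for E2A and blue for HEB) on a log axis against all peaks of the same list (grey bar, 5th to 95th percentile, with the median and the 99th percentile as ticks). Diamonds mark the site between Trac and Dad1, which scored from 319.93 to 3062.6, and open circles mark the other 8 peaks, which scored from 53.25 to 139.36.

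Sites shared by all 6 lists were uncommon. Over the whole genome 607 of 58451 merged sites had a peak of every list, a background of 1.04%. Among those 607 sites the 1 past Trac ranked 34 by DN3 E2A score, 48 by DN3 HEB, 70 by CD73- E2A, 28 by CD73- HEB, 118 by CD73+ E2A and 10 by CD73+ HEB. Taking for each shared site the lowest of its 6 within-list percentiles, the site past Trac stood at 99.4% and ranked 21 of 607, and the median shared site stood at 80.3%. A peak of every list was found within 10 kb of 3.28% of 21891 genes and within 50 kb of 9.54%, and at both distances Trac was among these genes and Trdc was not.

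The 6 peaks past Trac overlapped closely. The widest, DN3 HEB, ran from 54226572 to 54228442, 1871 bp, and held all the others. The DN3 E2A peak was 1374 bp wide, the CD73- peaks 819 bp (E2A) and 893 bp (HEB), and the CD73+ peaks 706 bp (E2A) and 877 bp (HEB). The narrowest, CD73+ E2A, ran from 54227163 to 54227868 and lay inside each of the other 5, so that these 706 bp are common to all lists. The midpoints of the peaks fell within 81 bp of each other, from 54227434 to 54227515, and the E2A and HEB midpoints of a stage were 73 bp apart in DN3, 26 bp in CD73- and 29 bp in CD73+ cells.

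These peaks were wide for their lists. The median peak of the DN3 E2A list measured 617 bp, that of DN3 HEB 721 bp and those of the later lists 149 bp to 181 bp, and the peak past Trac was wider than 96.5% of its list (DN3 E2A) to 99.8% (CD73+ E2A). Shared sites as a group had median widths of 894 bp and 1099 bp in the DN3 lists and 196 bp to 453 bp in the later ones. The difference in width between DN3 and the later stages at Trac had the same direction as in the whole lists. The list medians fell more in proportion than the peaks at Trac, and the cause of the difference was not tested.

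**Figure D2:**
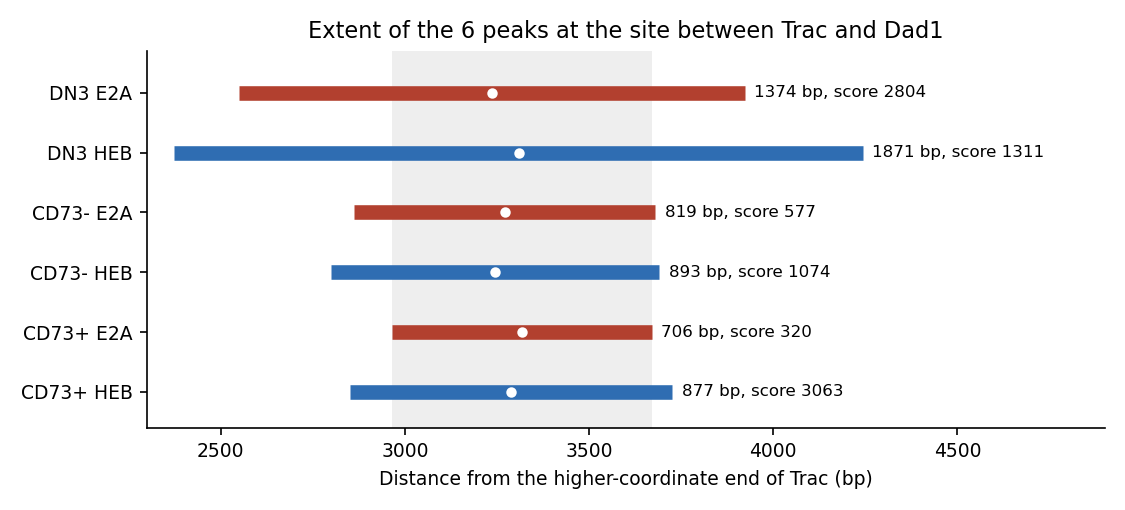
Extent of each list's peak at the site past Trac, in bp from the higher-coordinate end of Trac, with the midpoint as a white dot and width and score beside it (red E2A, blue HEB). The grey band is the 706 bp common to all 6 peaks, and the midpoints fall within 81 bp.

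The site past Trac begins 2374 bp from the end of Trac and ends 7043 bp before Dad1, in no annotated gene. By distance it is nearer to Trac, but both genes fall within 10 kb of it, and the lists carry nothing that ties it to either. A single other peak stood in this interval, for DN3 HEB at 54233096 to 54233680, 1805 bp before Dad1, with a score of 76.37. That score was higher than 56.0% of its list. No E2A peak and no peak of CD73- or CD73+ cells overlapped it.

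Neither constant gene carried a peak in its own span. Trac had 7 peaks within 10 kb and 8 within 50 kb, from all 6 lists. Trdc had 1 peak within 10 kb and 6 within 50 kb, from 3 lists, and its nearest peak was a DN3 HEB peak 1063 bp past the gene. Within 50 kb of a gene a peak was found at 49.6% of all genes for DN3 E2A, 48.1% for DN3 HEB, 41.3% for CD73- E2A, 37.9% for CD73- HEB, 53.1% for CD73+ E2A and 41.9% for CD73+ HEB. To have some peak at that distance is thus common, and for Trdc, which had one in both DN3 lists and the CD73+ HEB list, nothing is read from it.

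The delta D segments were the second place in the window where lists met. Trdd2, the second delta D segment, is 16 bp long (54122226 to 54122241) and lay inside 3 peaks. The DN3 E2A peak there scored 84.47 (54121703 to 54122370), the DN3 HEB peak 63.08 (54121855 to 54122931), and the CD73+ HEB peak 139.36 (54122003 to 54122329). The CD73+ HEB peak stood above 83.2% of its list, and the DN3 peaks above 51.5% (E2A) and 38.5% (HEB) of theirs. The 327 bp of the CD73+ peak lay wholly within both DN3 peaks, and its midpoint was 67 bp from the middle of Trdd2. The joined site ended 207 bp before Trdj1, the first delta J segment. Sites with peaks of at least 3 lists made up 7.15% of all merged sites.

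No peak was called over Trdd2 in the CD73- lists or in the CD73+ E2A list. With the CD73+ lists exchanged, the later peak at Trdd2 would be an E2A peak, and without them the site would have DN3 peaks alone. The 3 midpoints spread over 357 bp, more than at the site past Trac. With overlap required over 50% of both peaks or with midpoints no more than 200 bp apart, the 3 peaks did not join into a single site.

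Another site, on the side of Trdd1 toward the V segments, was shared by the DN3 lists. The E2A peak there scored 106.85 (54110998 to 54111758) and the HEB peak 53.25 (54110835 to 54111709), and it ended 1710 bp before Trdd1, the first delta D segment. The peaks overlapped by 712 bp, and their midpoints were 106 bp apart. The E2A peak stood above 62.3% of its list and the HEB peak above 14.1%, close to the minimum score. Sites with peaks of at least 2 lists made up 17.7% of all merged sites. This site and the Trdd2 site both lie inside the span of Gm30275.

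The remaining peaks came from 1 list each. A DN3 HEB peak of 59.31 (54147171 to 54148047) stood between Trdc and Trdv5, a delta V segment that lies past the constant gene, 615 bp before Trdv5. It was above 31.0% of its list. A CD73+ E2A peak of 65.6 (54270191 to 54270325) lay 1022 bp past Abhd4 and was 135 bp wide, above 62.4% of its list in score. With the CD73+ lists exchanged it would be a HEB peak. Of the 14 peaks in the window, 6 scored under 100, some of them at sites shared by lists. A peak of 1 list with so low a score is weak evidence of a site. This holds also for those of 76.37 (DN3 HEB) and 65.6 (CD73+ E2A), which stood above the middle of their lists.

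**Figure D3:**
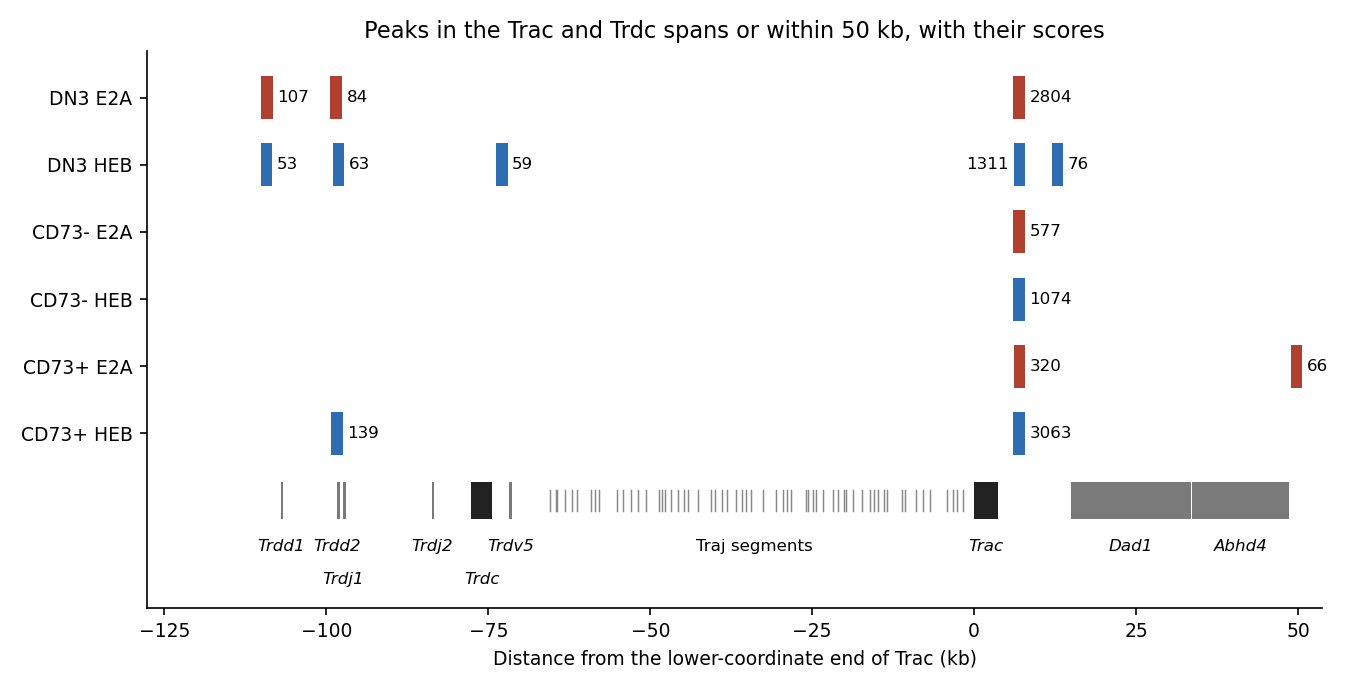
The 14 peaks by list, with scores beside them, along the distance in kb from the lower-coordinate end of Trac (markers are centred on peak midpoints and are drawn 1 width, not the peaks' own). Black boxes are Trdc and Trac, grey boxes and ticks the other elements, and the row of Traj segments has no peak in any list.

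Large parts of the window held no peak of any list. The longest such stretch, 78.5 kb from 54148048 to 54226571, holds all 60 annotated Traj segments, Trdv5 and Trac itself. A stretch of 24.2 kb from 54122932 to 54147170 holds Trdj1, Trdj2 and Trdc, and so the interval in which the delta enhancer is known to lie. Another, of 36.5 kb, holds Dad1 and Abhd4. The peak farthest from the genes that the 50 kb rule kept was the CD73+ E2A peak 45993 bp from Trac. The nearest peak it left out was a CD73- HEB peak 110.1 kb before Trdc, and on the other side the nearest was a DN3 E2A peak 240.3 kb past Trac.

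By stage, the DN3 lists held 3 peaks (E2A) and 5 (HEB) in the window, the CD73- lists 1 each and the CD73+ lists 2 each. The CD73- peaks were both at the site past Trac. Of the 8 peaks elsewhere, 6 were from DN3 cells, and 5 were HEB peaks against 3 for E2A. The whole lists (E2A and HEB) hold 12357 and 11619 peaks in DN3, 12434 and 9407 in CD73-, and 23205 and 10194 in CD73+. With so few peaks elsewhere, no lean to a stage or factor is read from them. Peaks scoring at least 100 numbered 2 (E2A) and 1 (HEB) in DN3, 1 and 1 in CD73-, and 1 and 2 in CD73+ cells. Over the whole lists, 40.6% (E2A) and 30.7% (HEB) of DN3 peaks score that high. The shares are 8.79% and 14.3% for CD73- and 7.02% and 24.1% for CD73+ cells. The cut is thus not equal across lists, and no difference between stages is read from these counts.

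By peaks per Mb the window was sparser than the V part of the locus, although it held only 1 to 5 peaks a list. The V part includes duplicated V clusters, and how reads were shared among their copies is not given in the sources used here. The 181.3 kb window held 16.5 peaks per Mb for DN3 E2A and 27.6 for DN3 HEB, against 44.4 and 36.6 in the other 1664.9 kb of the annotated Tcra span and 4.54 and 4.27 over the main chromosomes. In CD73- cells the window held 5.51 per Mb in each list, which is 1 peak, against 15.6 (E2A) and 8.41 (HEB) in the rest of the span. In CD73+ cells it held 11.0 in each list, which is 2 peaks, against 15.0 and 20.4. The V part had the higher density in every list, although in each of them the peak past Trac outscored every peak of the V part, which reached 2599.87 (DN3 E2A), 1009.93 (DN3 HEB), 288.59, 284.72, 153.86 and 986.83.

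**Figure D4:**
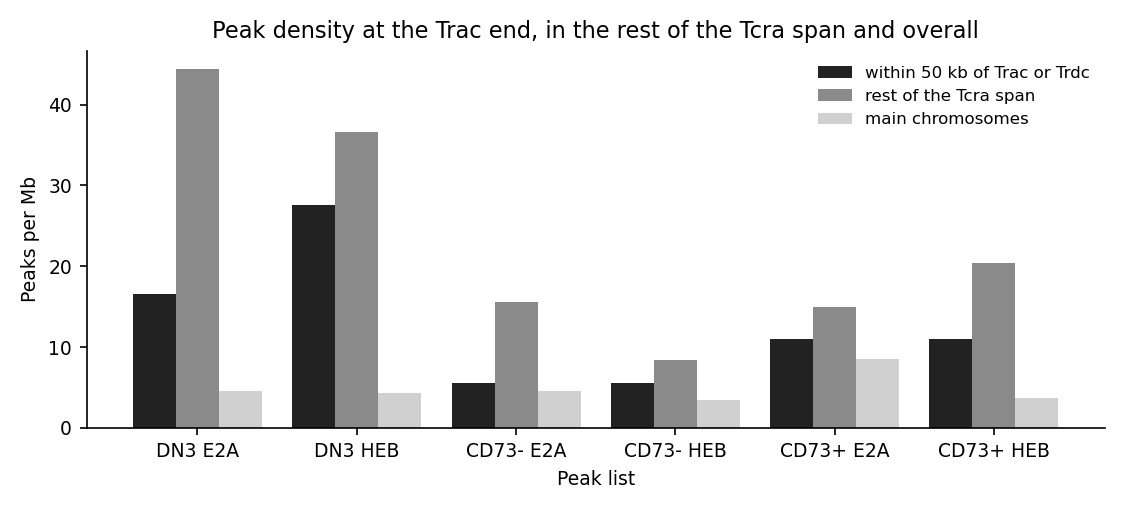
Peaks per Mb in each list for the window around Trac and Trdc (black), the rest of the Tcra span (grey) and all main chromosomes (light). The window holds 1 to 5 peaks a list, so its bars rest on few peaks, and the rest of the span is higher in each list.

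Other genes of the receptor and its assembly were set beside the members. Of 14 such genes (Trbc1, Trbc2, Trgc1 to Trgc4, Cd3d, Cd3e, Cd3g, Cd247, Ptcra, Rag1, Rag2 and Dntt), a peak within 10 kb was found at 14 for DN3 E2A (background 26.2% of genes), 12 for DN3 HEB (24.3%), 6 for CD73- E2A (17.6%), 10 for CD73- HEB (17.2%), 6 for CD73+ E2A (23.7%) and 11 for CD73+ HEB (20.2%). Several of these genes are neighbours and share a peak, such as Cd3d and Cd3g, so the counts are not of separate sites. Cd247, the zeta chain of the receptor complex, and Dntt, the polymerase that adds bases at joints, had peaks within 10 kb in all 6 lists, as Trac had. So did Cd3d and Cd3g. Trdc with 1 list and Rag2 with 1 list had the fewest.

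The beta constant genes resembled Trac in 1 respect. Trbc2, a beta constant gene with a known enhancer downstream, had its highest peaks past the gene as Trac did, 4995 bp to 6104 bp away. They scored 1038.63 (DN3 E2A), 637.59 (DN3 HEB), 182.76 (CD73- E2A), 317.33 (CD73- HEB) and 1026.35 (CD73+ HEB), with no CD73+ E2A peak within 10 kb. Around Trbc1 and Trbc2 the same 50 kb rule took 12 peaks in 5 sites, and the most lists at a site was 5. Around the 4 gamma constant genes it took 29 peaks in 14 sites, and the most lists at a site was 4. The highest gamma scores were 175.9 for DN3 E2A and 482.56 for CD73+ HEB, the latter at Trgc1. Scores in these lists were higher past Trac than at any beta or gamma constant gene, a comparison within each list for which no test was made.

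**Figure D5:**
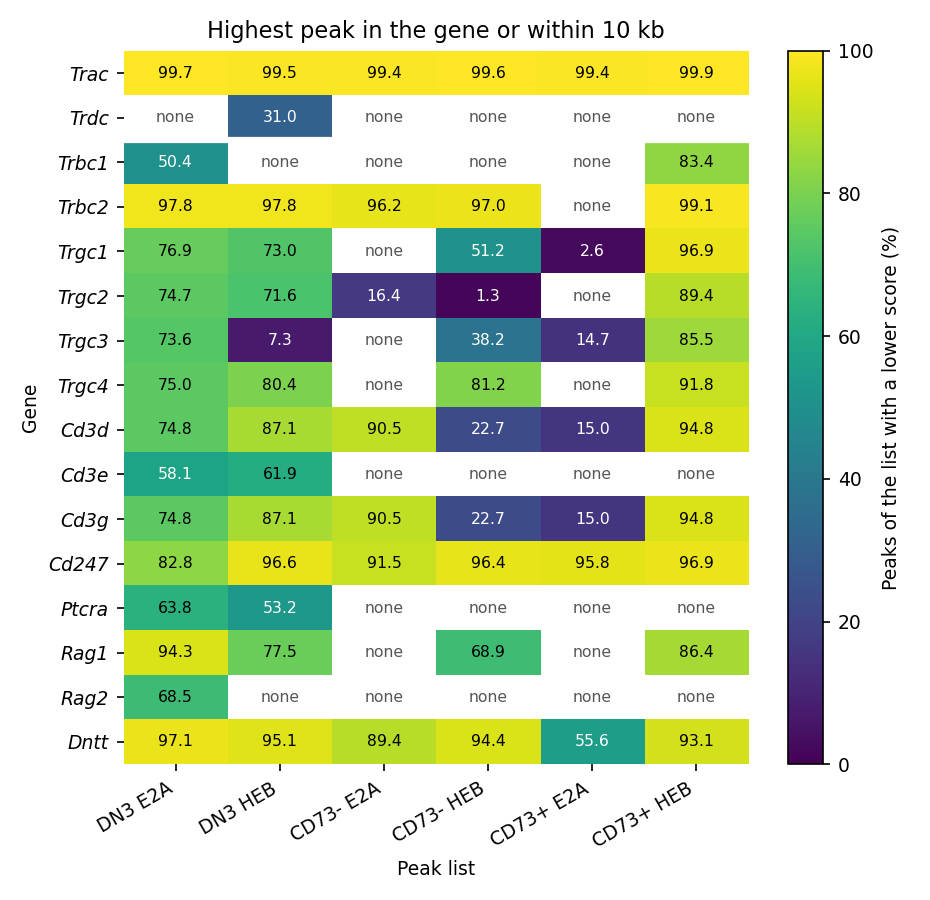
For each gene (rows) and peak list (columns), the share of that list's peaks with a score below the highest peak in the gene or within 10 kb, with "none" where no peak was called. Trac is at 99.4% to 99.9% in all 6 columns, Trdc has a value in the DN3 HEB column only (31.0%), and Trbc2 has 5 of 6.

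Genes with a pattern over the 6 lists like that of Trac were found by the sum of absolute differences in percentile of the highest peak within 10 kb. Dad1 came first with a difference of 0, since it is within 10 kb of the same 6 peaks. It was followed by Ccdc162 (1.04 percentage points in sum), E2f2 (1.05), Dgkd and Sag (1.15 each, from the same peaks). E2f2, a cell cycle transcription factor, had scores of 2415.52 and 1706.61 in DN3, 431.61 and 965.77 in CD73- and 248.16 and 2721.23 in CD73+ cells (E2A and HEB). Dgkd, a diacylglycerol kinase, had 2211.95 and 1384.22, 692.21 and 1347.55, and 433.81 and 1710.85. These genes were picked for likeness over 6 lists, and nothing about shared control follows from it.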

How the data were processed

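E2A and HEB chromatin immunoprecipitation and input were sequenced from 3 stages, 9 libraries with 1 per group, and 6 peak lists were used. Per the submitters' processing notes, the authors used Bowtie, HOMER and MACS 1.4.2 with mm10. Per the labels, duplicates were joined into a single file, and cells were fixed with 1% formaldehyde (10 min). Antibodies were rabbit sera raised against the C-terminal ends of the proteins. The deposited score of each peak, taken as -10 log10 of the authors' MACS p-value though no header states it, was not changed. Each list names its cells and antibody, which gave its group, and 0 lists had no match.

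Peaks on 21 chromosomes were kept, and starts were counted from 1. Peaks overlapping by at least 1 bp were joined into sites. Gene spans came from a RefSeq table of the same build (GRCm38.p6, C57BL/6J), which gives no strand or exon, with 21891 protein-coding and receptor constant genes as background. Named genes are Trac and Trdc, elements of their window, the 14 receptor genes and the 5 genes most like Trac. The members and lists were chosen with earlier results of these data known. The planned motif search in the sites needs genome sequence and was not run. Joining by overlap or by midpoints, and the search for peaks near genes, were tested on simulated data. The simulated sites lay well apart, and joining by overlap over 50% of both peaks was not tested. No test between groups was possible with 1 list each. Scripts ran in Python 3.11.15 with pandas 2.3.3, numpy 2.4.6, matplotlib 3.10.9 and scipy 1.17.1. Alternatives were windows of 10 kb and 100 kb, scores from 100 up, lists shortened to the 9407 highest peaks, peaks wider than 3000 bp left out, overlap over 50% of both peaks, midpoints within 200 bp and percentiles on chromosome 14 alone. Leaving out or exchanging the CD73+ lists was added after the data were seen.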

Additional observations from a re-analysis of the deposited data

How the results depend on the processing

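The single site in all 6 lists, the one past Trac, was found under each of the 6 alternatives that recomputed it. These were 10 kb, 100 kb, scores from 100 up, lists of equal length, overlap over 50% of both peaks and midpoints within 200 bp. Except under the overlap rule, its own values fixed this outcome. It begins 2374 bp from Trac, with scores from 319.93 up, ranks no lower than 138 and midpoints within 81 bp. The overlap rule joined peaks in chains, and not every pair met it. The later peaks each covered 37.7% to 47.7% of the DN3 HEB peak. Of 79 recomputed values, 60 were counted as the same and 19 as moved. Some of the 60 could not have moved, so this tally does not measure stability. Counts of DN3 and CD73- peaks do not depend on the CD73+ lists. No peak in the window was wider than 1871 bp, so the limit of 3000 bp removed none. The CD73- HEB list has 9407 peaks, the length to which lists were shortened. A count was the same within 1.5 times its main value. A percentile was the same within an interval around its main value, and that interval measures no spread between replicates. With a window of 10 kb, the peaks numbered 1 for DN3 E2A, 3 for DN3 HEB, 1 for CD73+ E2A and 1 for CD73+ HEB, in 3 sites, of which 1 had 2 or more lists and 1 had 3 or more. A score of at least 100 left 1 DN3 HEB peak, 1 CD73+ E2A peak and 3 sites, of which 1 had 2 or more lists and 1 had 3 or more. Without the CD73+ lists the merged sites numbered 5. Sites with 3 or more lists also numbered 1 with overlap over 50% of both peaks, with midpoints within 200 bp and, by construction, without the CD73+ lists. Against chromosome 14 peaks alone, the percentile of the peak past Trac was 98.9% for CD73- E2A, 99.5% for CD73- HEB, 98.8% for CD73+ E2A and 99.5% for CD73+ HEB. A window of 100 kb took the same numbers of peaks. No paired analysis was possible because each group has 1 list and no value comes from a test. Unknown read depth limits what the absence of a peak can show, and libraries pooled before deposit leave no replicate spread.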

Other observations

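The V part of the locus, outside the 50 kb window, held its own recurrent sites. The 1664.9 kb of the Tcra span before the window held 234 peaks in 116 sites. Of these sites 82 had a DN3 peak, 52 of them in DN3 lists only, and 34 had peaks in CD73- or CD73+ lists only. The same shares over all 58451 merged sites were not computed, so nothing particular to the V part is read from these counts. A V segment lay within 1000 bp of 62 of the 116 sites (53.4%) and of 40 of the 54 sites with peaks of 2 or more lists (74.1%). For comparison, 20.1% of the bases of this span lie that near to a V segment, a share that does not allow for the widths of the sites. A peak of any list lay within 1000 bp of 59 of 135 annotated V segments (43.7%), against 37.3% of 21891 genes, whose median span is 17161 bp where that of these V segments is 502 bp. No test was made of these differences.

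By DN3 E2A score the 3 highest sites there lay over members of the Trav15 family, alpha V segments of which some also join to delta segments. The site over Trav15-1-dv6-1 (53558863 to 53561368) had peaks in all 6 lists, 2599.87 and 1009.93 in DN3, 288.59 and 284.72 in CD73-, and 153.86 and 986.83 in CD73+ cells (E2A and HEB). The site over Trav15d-1-dv6d-1 (52862790 to 52864874) had 1847.24 and 849.46 in DN3 cells, 65.67 for CD73- E2A, and 57.33 and 475.68 in CD73+ cells. The site over Trav15n-1 (53173601 to 53175834) had 1719.34 and 846.96 in DN3 cells, 70.85 for CD73- E2A, and 57.33 and 527.85 in CD73+ cells. Neither had a CD73- HEB peak. These segments are members of duplicated V clusters with near-identical copies. How the authors' mapping shared reads among such copies is not given in the sources used here, so the values of single copies are uncertain. The cells are BALB/c and the reference is C57BL/6J, and whether each copy is present in these cells was not checked. A further site with peaks in all 6 lists lay over Trav4-3, with 378.21 and 246.68 in DN3, 99.19 and 135.07 in CD73-, and 131.52 and 387.29 in CD73+ cells. In both CD73- lists and in the CD73+ E2A list it scored higher than the sites over Trav15d-1-dv6d-1 and Trav15n-1, or had a peak where they had none. Sites over Trav15n-2, Trav15d-2-dv6d-2 and Trav15-2-dv6-2 scored lower for DN3 E2A than the 3 highest, at 563.2, 547.48 and 365.37. The next site by DN3 E2A score after the 3 highest (52494885 to 52496491) was far from any V segment, 66009 bp from Trav1. It had 1502.9 and 593.87 in DN3 cells, 62.71 for CD73- HEB and 137.58 for CD73+ HEB.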
